A study of Mus musculus with 6 samples.

Results

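Genes of glucose transport, glycolysis, the pentose phosphate pathway and glycogen turnover were examined in bone marrow neutrophils labelled WT or LRP5-null. The 40 genes were listed by name and found by symbol among the 52636 genes of the deposited expression table: 5 transporters of glucose and lactate, 10 genes of upper glycolysis and its control, 10 of lower glycolysis and lactate, 8 of the pentose phosphate pathway, 6 of glycogen, and Hif1a. The symbol Aldoa stood on 2 rows, of which the higher was used. Levels are given in TPM, a gene's share of the transcripts of a library after reads are divided by gene length. A test required an average of 1 TPM or more across the 6 libraries, which 37 of the 40 genes and 9775 genes in all met. Slc16a1, Pfkm and Aldoc did not.

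RNA was sequenced from primary neutrophils of C57BL/6N mice aged 10 weeks, in 3 libraries labelled WT and 3 labelled LRP5f/f/Lyz2Cre+, called LRP5-null here. The latter genotype combines floxed alleles of Lrp5, a Wnt co-receptor gene, with a Cre recombinase expressed from Lyz2, a gene active in neutrophils as well as in monocytes and macrophages, and the labels do not say whether the WT mice carried Cre. The comparison asked which transcripts differ in neutrophils when LRP5 is deleted. The labels name a Percoll gradient for the cells, the methods name sorting on CD11b and Ly6G for RNA sequencing, and neither says that each library came from its own mouse, so that p-values measure the spread between these libraries.

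Glycolysis splits glucose into pyruvate with a small yield of ATP, and neutrophils, which hold few mitochondria, draw most of their ATP from it and export the lactate. The pentose phosphate pathway branches off at glucose 6-phosphate and yields NADPH, the electron source of the NADPH oxidase that makes the oxidative burst and feeds the formation of neutrophil extracellular traps. Glycogen is built up while neutrophils mature and is broken down again to glucose phosphates, and HIF-1α, encoded by Hif1a, switches on many glycolytic genes when oxygen is low.

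The targeted transcript was not lower under its label. Lrp5 was at 1.12 to 1.42 TPM in the WT libraries and at 1.68 to 2.07 TPM in those labelled LRP5-null (log2 fold change 0.31, limma adjusted p = 0.136), so the Lrp5 level does not bear out the label. These levels are close to the 1 TPM needed for a test. A value for the whole gene does not show which exons its reads cover, so it cannot tell whether the floxed segment was removed. Lyz2, the gene into which the Cre is inserted, was at 24797 to 26791 TPM in WT and 13360 to 14027 TPM in LRP5-null, with a mean 0.531 times that of WT, and had the smallest p of all genes (limma adjusted p = 0.00351). Directions below follow the labels. Libraries held 249841492 to 340580330 reads. WT replicates 1 and 2 stood apart from the other 4 libraries: ribosomal RNA took 1.20% and 1.30% of their reads against 2.69% to 3.30% in the others, and across genes their deviations from the mean fell with the GC content of transcripts (Spearman −0.61 and −0.43, as a description) where those of the others rose with it (0.33 to 0.44). With WT replicate 3 left out, only WT replicates 1 and 2 stand for WT, so that this split and the label cannot be told apart. Intronic reads separated the labels, at 7.78% to 9.0% in WT and 10.6% to 11.2% in LRP5-null, and their part in the results below was not tested.

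Markers of neutrophils took 40.9% to 45.7% of each library, and Ly6g, which defines the lineage, stood at 920 to 1104 TPM. Of 13 markers of immature neutrophils 7 did not overlap between groups, all higher in the libraries labelled LRP5-null (summed level 72073 to 79396 TPM in WT, 75025 to 79153 TPM in LRP5-null). Of 12 markers of mature neutrophils 4 did not overlap, all lower (38382 to 43322 TPM and 37768 to 39335 TPM). Over all genes tested, 29.7% did not overlap. Among other cell types, the T and NK cell markers summed to 10.8 to 11.96 TPM in WT and 14.3 to 16.1 TPM in LRP5-null, nearly all of it Cd3d, with Cd3e at most 0.180 TPM, and 7 of the 8 were under 1 TPM in every library. Prg2, a granule gene of eosinophils, was called (log2 fold change 0.91, limma adjusted p = 0.0341). Epx, another one, was also higher without overlap, at 0 to 0.0344 TPM in WT and 0.0675 to 0.141 TPM in LRP5-null. It was under 1 TPM and was not tested. Siglecf, the highest marker of that list, overlapped between groups (7.31 to 8.77 TPM and 8.04 to 8.69 TPM). The 6 markers of eosinophils, basophils and mast cells found summed to 9.85 to 12.4 TPM in WT and 13.1 to 14.2 TPM in LRP5-null. The summed levels of erythroid, B cell and monocyte markers overlapped between groups, and Hbb-bs, Ighm and Ly6c2 in turn made up most of them. Of 9 monocyte and macrophage markers tested, 2 (Adgre1 and C1qa) did not overlap, both higher in LRP5-null. Of 6 B cell markers tested 0 did not overlap, and of 4 erythroid markers 1 (Hba-a1), lower. The part of these cells in the results below was not tested, and in bulk RNA fewer cells of a type and less RNA per cell cannot be told apart.

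Differences are given as log2 fold changes, LRP5-null minus WT, of log2(TPM + 1), a scale that understates the change of low genes. They were fitted with limma over all 9775 genes, and a gene was called at a Benjamini-Hochberg adjusted p under 0.05 over that table. Of all genes tested 0.532% were called, 0.266% higher and 0.266% lower, and with TPM rescaled without the most abundant genes 96 were called, 69 higher and 27 lower. Of the 37 pathway genes 0 were called by limma, with 0.0648 as the smallest adjusted p. At an unadjusted limma p under 0.05 there were 6 of them, 2 higher (Pfkfb2 and Tpi1) and 4 lower (Hk1, Pgd, Pygl and Ugp2), beside 23.5% of all genes, 14.4% higher and 9.12% lower. The 3 libraries of one label all lay above or all below those of the other in 7 of the 37 genes, which is 18.9% beside 29.7% of all genes. Of those 7, 1 was higher in LRP5-null (Pfkfb2) and 6 were lower (Hk1, Aldoa, Pgd, Pygl, Gbe1 and Ugp2), where over all genes 17.4% were higher without overlap and 12.3% lower. The median log2 fold change of the 37 was 0.049, with 22 above 0 and 15 below, and that of all genes was 0.041, with 58.8% above 0.

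Together the 40 genes took 1.11% to 1.31% of the transcripts of a library. Their summed level was 11089, 11989 and 13056 TPM in WT replicates 1 to 3 and 11367, 11801 and 12051 TPM in LRP5-null replicates 1 to 3. The sums of the groups overlapped, and the WT libraries were spread wider than the others. Levels ran over 4 orders of magnitude, from Pfkm to Taldo1, and the pentose phosphate genes Taldo1 and Pgd stood in the same range as the glycolytic enzyme Pkm and the glycogen phosphorylase Pygl.

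**Figure D1:**
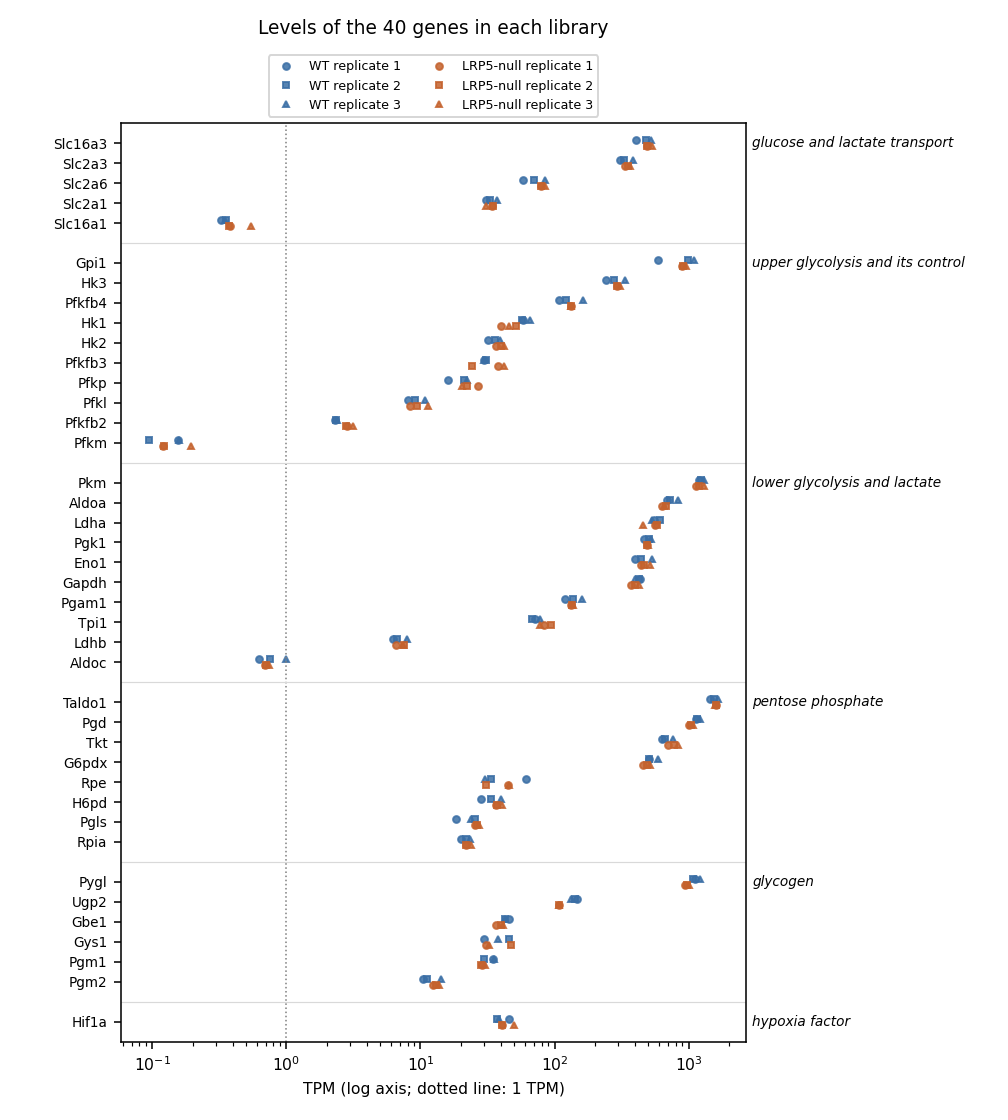
Level of each of the 40 genes in each library, in TPM on a log axis, grouped by role and ordered by mean level, with blue for WT, orange for LRP5-null and 1 symbol for each replicate number. Slc16a1, Pfkm and Aldoc lie left of the dotted line at 1 TPM in all 6 libraries, and for most genes the 2 colours overlap.

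**Figure D2:**
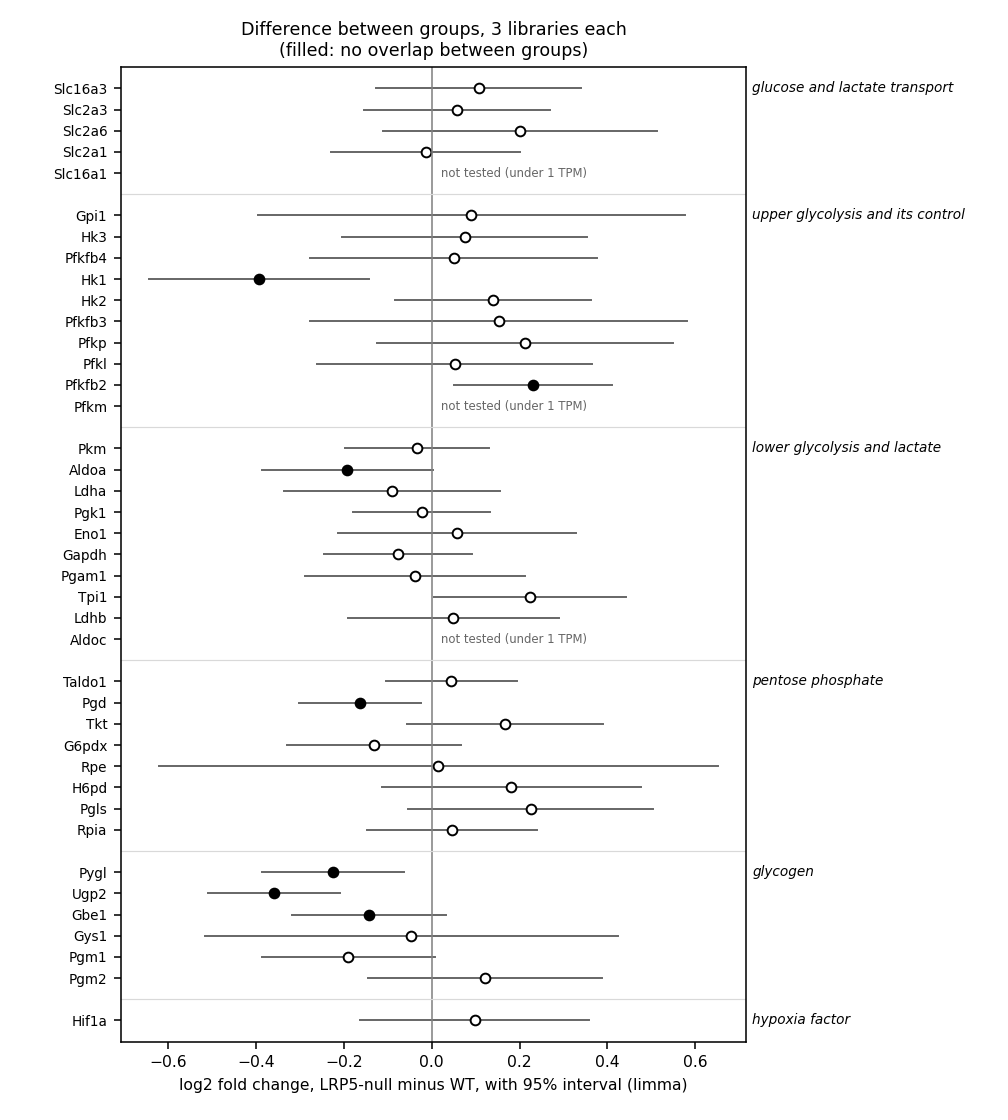
Log2 fold change of each gene, LRP5-null minus WT, as a point with its 95% interval from limma (3 libraries a group), filled where the groups did not overlap. The 7 filled points are Hk1, Pfkfb2, Aldoa, Pgd, Pygl, Ugp2 and Gbe1, and only Pfkfb2 among them lies right of 0.

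HIF-1 binds the letters ACGTG or GCGTG, which are common in the promoters of glycolytic genes, and the windows of the 3 genes with the smallest p are shown with these letters in capitals on either strand, where a match on the other strand reads CACGT or CACGC. The windows are the 250 bases before a transcript start in RefSeq on GRCm38.p6, the outermost where a gene has several starts, and all 3 genes lie on the minus strand, so that each is written 5′ to 3′ along the gene. The Ugp2 window is chr11:21371268-21371517, the Hk1 window chr10:62379909-62380158 and the Pygl window chr12:70227684-70227933.
Ugp2: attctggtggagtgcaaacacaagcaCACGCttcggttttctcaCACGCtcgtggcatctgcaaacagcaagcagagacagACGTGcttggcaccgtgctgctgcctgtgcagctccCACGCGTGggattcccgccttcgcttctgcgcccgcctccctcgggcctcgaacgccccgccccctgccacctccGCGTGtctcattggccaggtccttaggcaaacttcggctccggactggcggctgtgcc
Hk1: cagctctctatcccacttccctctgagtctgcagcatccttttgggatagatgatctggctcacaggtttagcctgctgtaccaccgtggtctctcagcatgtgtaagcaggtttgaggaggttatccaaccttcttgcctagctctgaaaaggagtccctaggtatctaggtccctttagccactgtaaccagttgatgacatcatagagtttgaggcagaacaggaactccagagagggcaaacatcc
Pygl: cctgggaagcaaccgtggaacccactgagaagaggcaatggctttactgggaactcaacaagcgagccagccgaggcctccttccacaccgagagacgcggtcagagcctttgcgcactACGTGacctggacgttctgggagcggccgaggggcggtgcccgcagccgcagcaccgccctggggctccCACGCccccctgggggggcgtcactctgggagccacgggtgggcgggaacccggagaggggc
The Ugp2 window held 6 matches, of which 2 overlap in CACGCGTG, the Pygl window 2 and the Hk1 window 0, while the second of the 2 Hk1 windows held the motif. A match to ACGTG is also part of the E-box CACGTG, which other factors bind. Windows were found by symbol for 39 of the 40 genes, Slc2a3 being the other one, and 33 of the 39 had the motif in at least 1 window. Of their 55 windows 78.2% held it, beside 56.3% of 9272 windows of genes tested and 38.6% of 32851 windows in all. Both motifs hold the letters CG, and the windows were not matched for GC content. A gene with several starts entered more than once, and the share by gene was not counted over all genes. The contrast therefore does not show an excess of the motif in these genes. These letters are a description of sequence, not sites of binding.

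Glucose and lactate transporters overlapped between groups in each of the 4 genes tested. Slc16a3, the lactate exporter MCT4, was the highest of them, at 404, 478 and 524 TPM in WT replicates 1 to 3 and 486, 492 and 529 TPM in LRP5-null replicates 1 to 3. All 3 LRP5-null values lay above 2 of the WT values, and the log2 fold change was 0.11 with a 95% interval from −0.13 to 0.34. Slc2a3, the high-affinity glucose transporter GLUT3, ranged from 308 to 384 TPM in WT and from 338 to 366 TPM in LRP5-null (log2 fold change 0.058). Slc2a6, which encodes GLUT6 of internal membranes, ranged from 57.8 to 85.5 TPM in WT and from 78.7 to 84.4 TPM in LRP5-null. Its log2 fold change of 0.20 was not called with all libraries (limma adjusted p = 0.390). Without WT replicate 3, a fit that called 19.6% of all genes, Slc2a6 rose by 0.34 (limma adjusted p = 0.0464), and against WT replicate 3 alone its value was −0.081. Slc2a1, the basal glucose transporter GLUT1, stood at 31.0 to 37.5 TPM and 31.0 to 35.0 TPM. Slc16a1, the monocarboxylate transporter MCT1, was at 0.327 to 0.353 TPM in WT and 0.374 to 0.540 TPM in LRP5-null and was not tested.

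In upper glycolysis, 8 of 9 genes tested had a log2 fold change above 0 and 1, Hk1, below, with a median of 0.090. Of all genes 58.8% were above 0. The split was 4 above and 5 below without WT replicate 1 (median −0.037) and with GC and length trends removed (−0.016). It was the same with the ribosomal share as covariate (−0.099) and against WT replicate 3 alone (−0.14). Hk1 encodes hexokinase 1, which phosphorylates glucose on entry and binds the outer mitochondrial membrane. The gene is on the minus strand of chromosome 10 (61731603 to 61842656 in NCBIM37, the mm9 assembly, used for all gene positions). Its level was 58.5, 57.0 and 65.3 TPM in WT replicates 1 to 3 and 39.9, 51.7 and 45.9 TPM in LRP5-null replicates 1 to 3. The groups did not overlap, and the LRP5-null mean was 0.760 times that of WT, with a log2 fold change of −0.39 (SE 0.11, limma adjusted p = 0.118). It was called at −0.52 in a fit with each library's trends along GC content and length taken out (limma adjusted p = 0.0369), which called 4.9% of all genes, 3.11% lower. Hk1os, an antisense gene at the Hk1 locus, had a log2 fold change of 0.050, and the sources do not say whether strand was used in the quantification.

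The other hexokinases did not share that direction in their values. Hk3, the hexokinase of myeloid cells, was the highest of the 3 at 240 to 338 TPM in WT and 291 to 306 TPM in LRP5-null. Hk2, the inducible form, was at 32.1 to 39.3 TPM and 36.6 to 42.2 TPM. Within the summed TPM of the 3 hexokinases, Hk1 took 16.0% ± 1.54 in WT (SD, n = 3) and 11.96% ± 1.31 in LRP5-null, with WT libraries from 14.7% to 17.7% and LRP5-null libraries from 10.8% to 13.4%. The share of Hk2 was 9.44% ± 0.486 and 10.3% ± 0.373, without overlap in the opposite direction, and that of Hk3 was 74.6% ± 1.90 and 77.7% ± 1.45, with overlap. Shares of a sum add up to one whole, so that one cannot be lower without another being higher, and they were not tested.

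**Figure D3:**
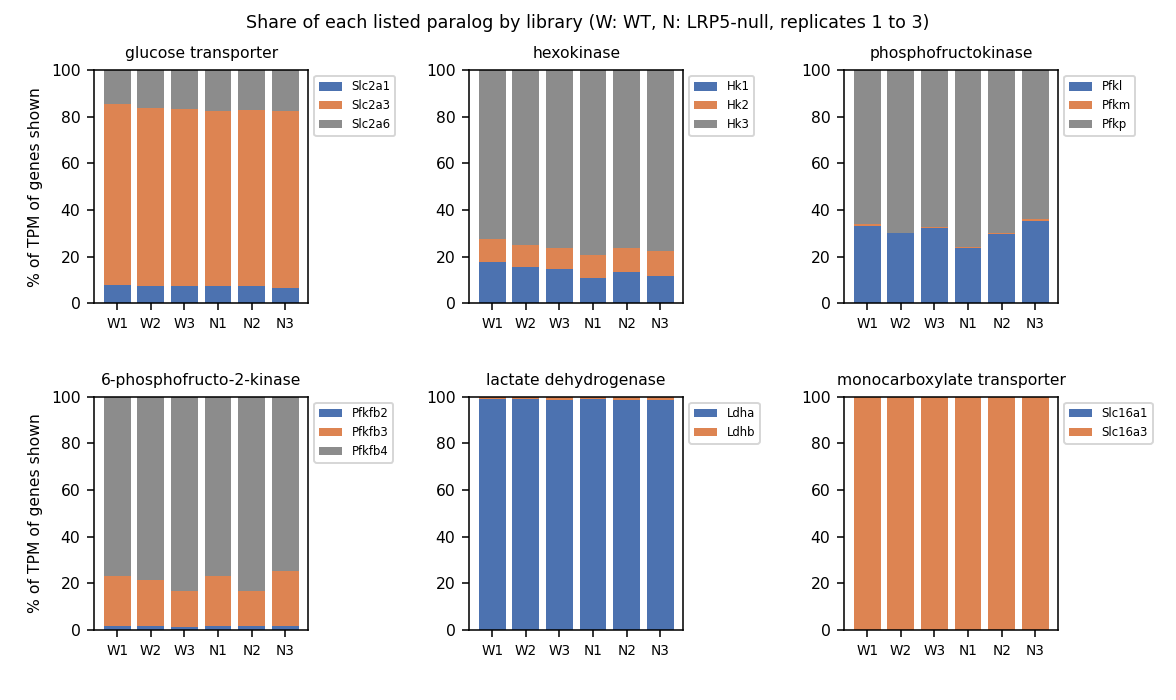
Share of each listed paralog, in percent of the summed TPM of the genes shown in its panel, in WT replicates 1 to 3 (W1 to W3) and LRP5-null replicates 1 to 3 (N1 to N3), as stacked bars from 0 to 100. The Hk1 share was between 14.7% and 17.7% in WT and between 10.8% and 13.4% in LRP5-null, while Ldha took nearly all of its sum with Ldhb, and Slc16a3 of its sum with Slc16a1, in every library.

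Pfkfb2 was the only gene of the 37 that was higher in LRP5-null without overlap. It encodes a form of the bifunctional enzyme that makes and removes fructose 2,6-bisphosphate, the activator of phosphofructokinase, and lies on the minus strand of chromosome 1 (132585620 to 132625830). Its level was 2.32, 2.36 and 2.38 TPM in WT replicates 1 to 3 and 2.85, 2.80 and 3.15 TPM in LRP5-null replicates 1 to 3. The WT values lay close together and below each LRP5-null value, and the log2 fold change was 0.23 (SE 0.077, limma adjusted p = 0.152). It was the lowest of the 3 PFKFB genes among the 40, while Pfkfb1, not one of the 40, ranged from 0.947 to 1.31 TPM. Pfkfb4 took 79.7% ± 3.33 of the summed TPM of the 3 in WT (SD, n = 3) and 78.2% ± 4.39 in LRP5-null, with levels of 107 to 162 TPM and 132 to 134 TPM. Pfkfb3, at 29.9 to 30.6 TPM in WT, was spread from 24.1 to 41.8 TPM in LRP5-null.

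Gpi1, glucose 6-phosphate isomerase, was the highest gene of upper glycolysis, with 595, 992 and 1104 TPM in WT replicates 1 to 3 and 898, 915 and 958 TPM in LRP5-null replicates 1 to 3. WT replicate 1 stood far below the other 5 libraries, and the 3 LRP5-null values lay between it and the other WT values. The log2 fold change was 0.090 with an interval from −0.40 to 0.58, and it turned to −0.18 without WT replicate 1. Phosphofructokinase, the committed step, was made up of Pfkp, the platelet form, with 16.1 to 22.4 TPM in WT and 20.5 to 26.8 TPM in LRP5-null, and Pfkl, the liver form, with 8.08 to 10.8 TPM and 8.38 to 11.4 TPM. The muscle form Pfkm was at most 0.194 TPM in any library and was not tested.

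In lower glycolysis, 3 of 9 genes tested had a log2 fold change above 0 and 6 below, with a median of −0.034. Pkm, the pyruvate kinase of white cells and muscle, was the highest, at 1193, 1235 and 1299 TPM in WT replicates 1 to 3 and 1138, 1204 and 1299.6 TPM in LRP5-null replicates 1 to 3. The groups spanned nearly the same range, and the interval of its log2 fold change ran from −0.20 to 0.13. Aldoa, the aldolase that splits fructose 1,6-bisphosphate, lies on the minus strand of chromosome 7 (133938748 to 133944265). It stood at 691, 731 and 840.0 TPM in WT replicates 1 to 3 and 637, 683 and 654 TPM in LRP5-null replicates 1 to 3. The groups did not overlap, though the gap between WT replicate 1 and LRP5-null replicate 2 was small, and the log2 fold change was −0.19 (SE 0.083, limma adjusted p = 0.218). With GC and length trends removed it was called at −0.32 (limma adjusted p = 0.0249).

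Tpi1 was the 1 gene of lower glycolysis with an unadjusted limma p under 0.05. Triosephosphate isomerase, its product, interconverts the triose phosphates that aldolase releases, and the gene lies on the minus strand of chromosome 6 (124760604 to 124764314). Its level was 71.4, 67.7 and 78.3 TPM in WT replicates 1 to 3 and 83.8, 93.6 and 77.3 TPM in LRP5-null replicates 1 to 3. LRP5-null replicate 3 lay below WT replicate 3, so that the groups overlapped, and the log2 fold change was 0.22 (SE 0.093, limma adjusted p = 0.205).

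Among the remaining enzymes of this stretch no group stood apart. Gapdh, which makes NADH at the oxidation step and often serves as a reference gene, ranged from 401 to 431 TPM in WT and from 369 to 426 TPM in LRP5-null. Pgk1, which yields the first ATP, ranged from 464 to 528 TPM and from 488 to 495 TPM, and Eno1, the enolase, from 397 to 535 TPM and from 442 to 513 TPM. The mutase Pgam1 was at 120 to 161 TPM in WT and 132 to 137 TPM in LRP5-null. Ldha, the lactate dehydrogenase subunit that favours lactate, was at 532 to 609 TPM and 453 to 577 TPM and took 98.8% ± 0.209 of the sum of Ldha and Ldhb in WT (SD, n = 3) and 98.7% ± 0.232 in LRP5-null. Ldhb, its partner subunit, ranged from 6.21 to 7.89 TPM and from 6.56 to 7.56 TPM. Aldoc, the aldolase of brain, was at 0.620 to 0.988 TPM and 0.696 to 0.744 TPM and was not tested. Gapdh, Aldoa, Eno1, Pgk1, Pgam1, Ldha and Tpi1 have near-identical copies in the mouse genome. The 16 copies and related genes found by name, among them Gapdhs and Ldhal6b, reached at most 0.513 TPM. Copies under other names were not looked for. How reads that match both a gene and a copy were assigned is not given in the sources used here, so these levels are uncertain.

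In the pentose phosphate pathway, 6 of 8 genes had a log2 fold change above 0 and 2 below, where 58.8% of all genes were above 0. Without WT replicate 1, and with GC and length trends removed, 4 were above and 4 below. With all libraries the 2 below were G6pdx and Pgd, cytosolic dehydrogenases that make NADPH. H6pd, which also makes it, had a value of 0.18. Pgd, 6-phosphogluconate dehydrogenase, lies on the minus strand of chromosome 4 (148524100 to 148540880). Its level was 1139, 1154 and 1223 TPM in WT replicates 1 to 3 and 1014, 1040.0 and 1084 TPM in LRP5-null replicates 1 to 3. The groups did not overlap, and the LRP5-null mean was 0.893 times that of WT, with a log2 fold change of −0.16 (SE 0.060, limma adjusted p = 0.171). It was called at −0.25 with GC and length trends removed (limma adjusted p = 0.0298). G6pdx, glucose 6-phosphate dehydrogenase, which sets the rate of entry, was at 503, 504 and 593 TPM in WT replicates 1 to 3 and 459, 487 and 512 TPM in LRP5-null replicates 1 to 3. LRP5-null replicate 3 lay above WT replicates 1 and 2, and the log2 fold change of −0.13 had an interval from −0.33 to 0.068.

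Pgls, the lactonase between these dehydrogenases, was at 18.5, 25.6 and 23.9 TPM in WT replicates 1 to 3 and 25.3, 26.4 and 27.5 TPM in LRP5-null replicates 1 to 3. WT replicate 1 was the lowest library, WT replicate 2 lay within the LRP5-null range, and the log2 fold change was 0.22 (SE 0.12, limma adjusted p = 0.295). H6pd, which carries out the first steps within the endoplasmic reticulum, ranged from 28.2 to 40.2 TPM in WT and from 36.4 to 40.8 TPM in LRP5-null. Of the non-oxidative branch, which returns pentoses to glycolysis, Taldo1, transaldolase, was the highest of the 40 genes. It stood at 1448, 1544 and 1644 TPM in WT replicates 1 to 3 and 1597, 1613 and 1567 TPM in LRP5-null replicates 1 to 3. The LRP5-null values lay inside the WT range, and the interval of the log2 fold change ran from −0.11 to 0.19. Tkt, transketolase, ranged from 630 to 760 TPM in WT and from 698 to 832 TPM in LRP5-null (log2 fold change 0.17). Rpia, the isomerase, was at 20.1 to 23.5 TPM and 21.9 to 23.8 TPM. Rpe, the epimerase, was the most widely spread gene of the pathway, with 61.4, 33.3 and 30.1 TPM in WT replicates 1 to 3 and 44.9, 30.8 and 45.9 TPM in LRP5-null replicates 1 to 3, and its interval ran from −0.62 to 0.65.

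Of the 6 glycogen genes, 5 had a log2 fold change below 0, and the median was −0.17. Of the 6, 3 did not overlap, all lower, which is 50% beside 29.7% of all genes (12.3% lower). Of 13 further glycogen genes tested, 7 had a log2 fold change above 0 and 6 below, with a median of 0.0042, and the 3 without overlap (Gaa, Phka2 and Pygb) were all higher in LRP5-null. The summed level of the 6 was 1382, 1345 and 1489 TPM in WT replicates 1 to 3 and 1156, 1212 and 1232 TPM in LRP5-null replicates 1 to 3. Each WT sum lay above each LRP5-null sum, and Pygl made up most of it. A median below 0 held with WT replicate 3 left out (−0.16), with WT replicate 1 left out (−0.18), against WT replicate 3 alone (−0.19) and with GC and length trends removed (−0.14). The number of the 6 without overlap was 4 without WT replicate 3 (1 of them higher), beside 56.1% of all genes, and 3 without WT replicate 1, beside 37.4%. It was 5 against WT replicate 3 alone, beside 65.2%, and 1, a lower one, with GC and length trends removed, beside 33.5% (18.5% lower).

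Ugp2 had the smallest p of the 37 genes. It encodes UDP-glucose pyrophosphorylase, which makes the activated glucose from which glycogen is built, and lies on the minus strand of chromosome 11 (21221141 to 21271204). Its level was 146, 141 and 133 TPM in WT replicates 1 to 3 and 108, 109 and 109 TPM in LRP5-null replicates 1 to 3. The LRP5-null values were almost equal, at 109 ± 0.223 TPM (SD, n = 3), below the WT mean of 140 ± 6.85 TPM. The ratio of the means was 0.777, and the log2 fold change of −0.36 (SE 0.064, interval −0.51 to −0.21) missed the threshold (limma adjusted p = 0.0648). Without WT replicate 3, in the fit that called 19.6% of all genes, Ugp2 fell by 0.40 (limma adjusted p = 0.0120). With GC and length trends removed its value was −0.12 (limma adjusted p = 0.340).

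Pygl, the liver form of glycogen phosphorylase, releases glucose 1-phosphate from glycogen and lies on the minus strand of chromosome 12 (71291798 to 71332475). Its level was 1115, 1074 and 1227 TPM in WT replicates 1 to 3 and 939, 975 and 1006 TPM in LRP5-null replicates 1 to 3. The groups did not overlap, and the LRP5-null mean was 0.855 times that of WT, with a log2 fold change of −0.22 (SE 0.070, limma adjusted p = 0.139). It was called at −0.25 with GC and length trends removed (limma adjusted p = 0.0298).

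Gbe1, the branching enzyme, lies on the plus strand of chromosome 16 (70314194 to 70569961). It stood at 45.8, 42.6 and 42.5 TPM in WT replicates 1 to 3 and 36.8, 40.1 and 41.4 TPM in LRP5-null replicates 1 to 3. The groups did not overlap, by a small gap, and the log2 fold change of −0.14 (SE 0.075, limma adjusted p = 0.290) was −0.012 with GC and length trends removed. The gene the table names Pgm1, a phosphoglucomutase on chromosome 5 from 64484175 to 64519594, was at 35.0, 30.0 and 35.1 TPM in WT replicates 1 to 3 and 28.8, 28.1 and 30.2 TPM in LRP5-null replicates 1 to 3. LRP5-null replicate 3 lay just above WT replicate 2, and the log2 fold change was −0.19 (SE 0.084, limma adjusted p = 0.225). Phosphoglucomutases interconvert glucose 1-phosphate and glucose 6-phosphate, and RefSeq gives that gene the symbol Pgm2 and the gene named Pgm2 here the symbol Pgm1. The latter, on chromosome 4, ranged from 10.5 to 14.2 TPM in WT and from 12.4 to 13.7 TPM in LRP5-null and was the 1 glycogen gene above 0 (log2 fold change 0.12). Both were counted among the 6 glycogen genes by symbol, and the part of each in glycogen turnover was not examined. Gys1, the glycogen synthase of muscle and blood cells, was widely spread in both groups, from 29.9 to 46.1 TPM and from 30.6 to 47.7 TPM.

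**Figure D4:**
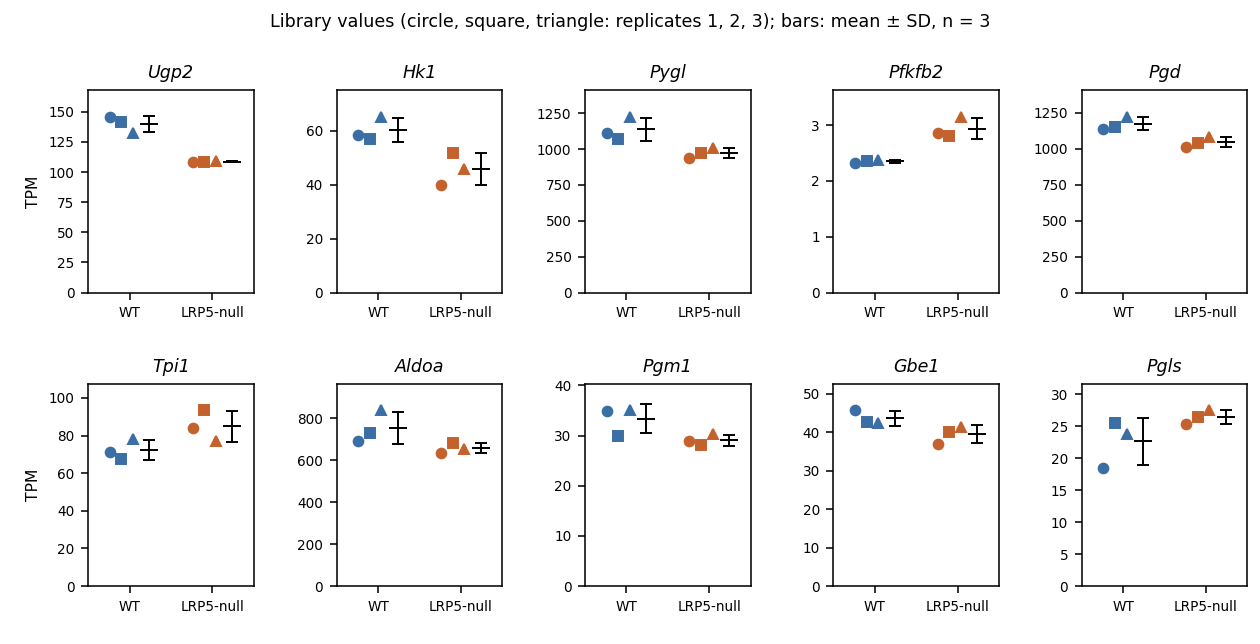
TPM of each library for the 10 genes with the smallest p, on axes that start at 0, with circles, squares and triangles for replicates 1, 2 and 3 and bars for the mean and SD (n = 3). The LRP5-null values of Ugp2 lie within 108 to 109 TPM, below the WT values of 133 to 146 TPM, while those of Tpi1, Pgm1 and Pgls overlap with WT.

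Hif1a itself was at 45.6, 37.5 and 38.5 TPM in WT replicates 1 to 3 and 40.8, 40.2 and 49.5 TPM in LRP5-null replicates 1 to 3. The groups overlapped, and the log2 fold change was 0.098 with an interval from −0.16 to 0.36.

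The WT libraries took a recurring order in these genes. WT replicate 1 was the lowest of the 3 WT libraries in 27 of the 37 genes, which is 73.0% beside 40.9% of all genes, and WT replicate 3 the highest in 28, which is 75.7% beside 50.4%. The median deviation of the 37 genes from their mean over all libraries was −0.13, −0.022 and 0.12 on the log2 scale in WT replicates 1 to 3, and the LRP5-null libraries had −0.031, 0.018 and 0.066. Each LRP5-null median lay inside the WT span. The median GC content of their transcripts was 53.5%, beside 50.0% for all genes tested with a value (89.7% of them). Against WT replicate 3 alone, all 3 LRP5-null libraries lay below it in 20 of the 37 genes and above it in 4, in all 64.9% beside 65.2% of all genes (33.8% below and 31.4% above), and the median log2 fold change was −0.10. With that library left out, the median was 0.099, and 18 of the 37 genes did not overlap (48.6% beside 56.1% of all genes), 12 higher and 6 lower, where over all genes 35.8% were higher and 20.3% lower.

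**Figure D5:**
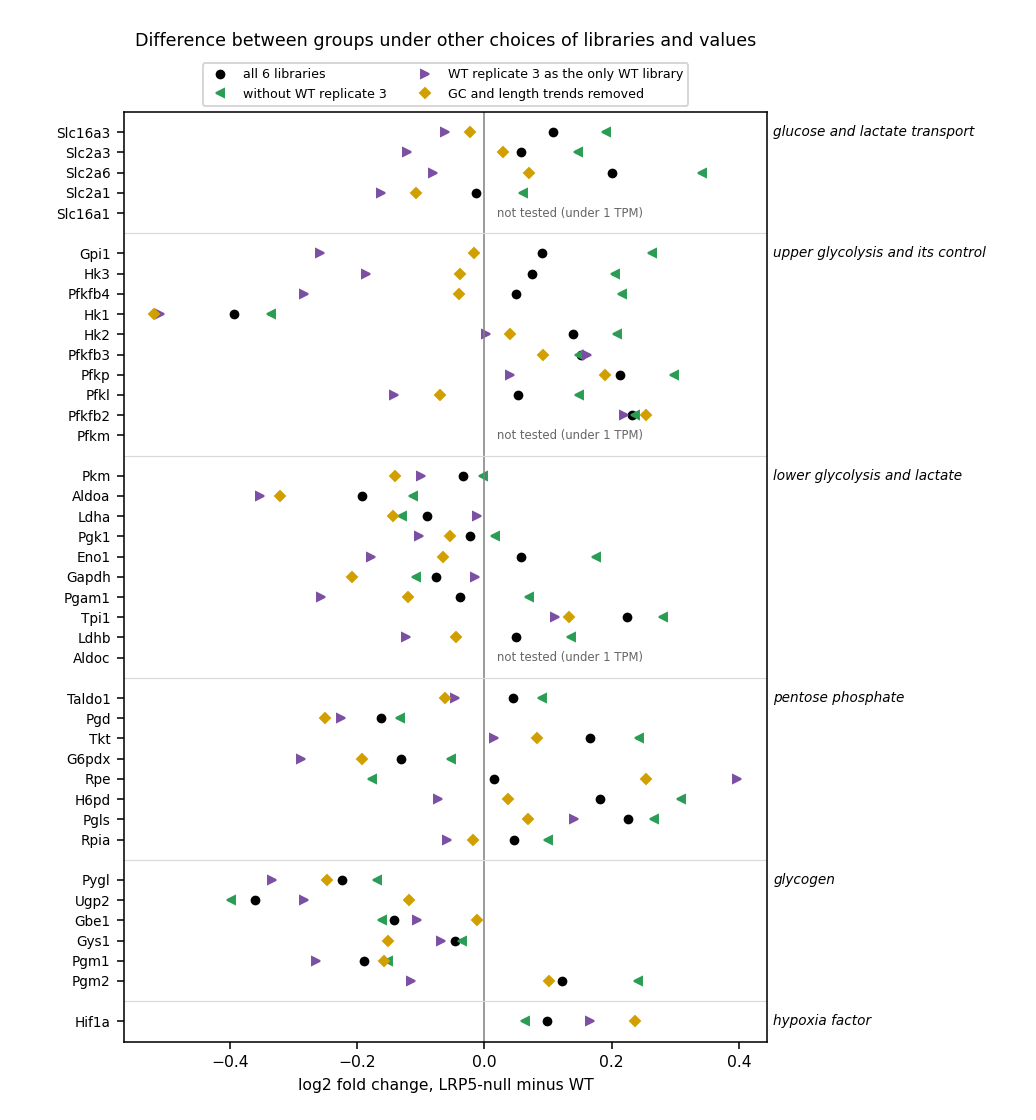
Log2 fold change of each gene, LRP5-null minus WT, with all 6 libraries (black), without WT replicate 3 (green), with WT replicate 3 as the only WT library (purple) and with GC and length trends removed (yellow). Hk1, Aldoa, Pgd, Pygl, Ugp2, Gbe1 and Pgm1 lie left of 0 and Pfkfb2 and Tpi1 right of 0 under all 4 choices, while Gpi1, Hk3 and Pfkfb4 change sides.

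A further 104 genes of the same pathways that were not among the 40 were read from the table, and 65 of them were tested. By limma 0 of the 65 were called, 13 had an unadjusted limma p under 0.05 (8 higher, 5 lower), and 19 did not overlap, which is 29.2% beside 29.7% of all genes. Their median log2 fold change was 0.044. Egln3, a prolyl hydroxylase that marks HIF-1α for destruction, had the smallest p. It stood at 18.2, 18.8 and 20.5 TPM in WT replicates 1 to 3 and 13.8, 13.1 and 13.9 TPM in LRP5-null replicates 1 to 3. The groups did not overlap, and the log2 fold change was −0.46 (SE 0.076, limma adjusted p = 0.0578). It was called under 3 other scalings of the same libraries, at −0.50, −0.49 and −0.45 (limma adjusted p = 0.0353, 0.0432 and 0.0435 with median-ratio scaling, quantile normalization and TPM rescaled without the most abundant genes). These scalings called 77, 47 and 96 genes over the whole table, beside 52 in the main fit.

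Gaa, the lysosomal enzyme that degrades glycogen, was low, at 1.11, 0.960 and 1.28 TPM in WT replicates 1 to 3 and 1.64, 2.30 and 1.94 TPM in LRP5-null replicates 1 to 3. Every LRP5-null value was above every WT value (log2 fold change 0.48, limma adjusted p = 0.0907). Ldhc, a lactate dehydrogenase of germ cells, was at 4.45, 4.999 and 5.92 TPM and at 7.05, 6.96 and 6.63 TPM (log2 fold change 0.37, limma adjusted p = 0.120). Both were called in the fit without WT replicate 3 (limma adjusted p = 0.0291 and 0.0184). That fit called 19.6% of all genes and 10 of the 65 further pathway genes. In it the label cannot be told apart from the split of libraries by ribosomal share and GC trend.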

How the data were processed

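Neutrophil RNA libraries (3 with the WT label, 3 with LRP5f/f/Lyz2Cre+) were sequenced, and samples were grouped by their titles and genotype labels. The deposited table gives TPM per gene, made by the authors, and holds no read counts per gene. The tool that made the TPM is not given in the sources used here. The submitters' processing notes name mm9 and DESeq2, but the identifiers are partly from later annotations. The authors also deposited a summary per library with counts of reads, percent of reads by class, the ratio of coverage at transcript ends, a score of coverage variation and insert sizes. Labels and methods differ on the kit and read layout, so the RNA selection is uncertain.

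TPM plus a pseudocount of 1 was taken to log2, genes averaging 1 TPM or more were kept, and LRP5-null was compared with WT by limma 3.58.1 (R 4.3.3, eBayes with a trend, two-sided, Benjamini-Hochberg adjustment over all genes tested). Because the values are TPM, a count model was not used. The fit was run on simulated data with independent noise in each gene and library. Those data did not hold the split of WT replicates 1 and 2 from the other libraries, so the run says nothing about that split. With 3 against 3, an exact permutation test of a single gene cannot go below p = 0.1. The depth behind a gene's value is unknown beyond the total reads of its library.

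The alternatives were pseudocount 0.1, no filter and a mean of at least 5 TPM, median-ratio and quantile scaling, TPM rescaled without 37 mitochondrially encoded and the 20 most abundant genes, eBayes without a trend or robust, a block, trends with GC and length taken out, ribosomal share as covariate, each library left out, and WT replicate 3 as the only WT library, whose spread is then assumed to equal that of the LRP5-null libraries. All 40 genes were named, and library values were given for the 10 with the smallest p and the highest of each role. Of the other pathway genes, the 3 with the smallest p were named. Library values of G6pdx and Rpe, and the names Pfkfb1, Phka2 and Pygb, were added after their values were seen. The genes and lists were chosen with earlier results of these data known. Gene positions come from GENCODE M1 on NCBIM37.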

Additional observations from a re-analysis of the deposited data

How the results depend on the processing

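Genes called over the whole table numbered 52 with all libraries, 3 without a filter, 29 at a mean of at least 5 TPM, 96 with TPM rescaled without the most abundant genes (69 of them higher, beside 26 of 52), 430 with GC and length trends taken out, 6 with the ribosomal share as covariate, 6 against WT replicate 3 alone, and 2 to 1920 with 1 library left out, the latter without WT replicate 3. Of the 37 pathway genes 0 were called, except 4 (Hk1, Aldoa, Pgd and Pygl) with GC and length trends taken out and 0 to 2 with 1 library left out, the 2 (Slc2a6 and Ugp2) without WT replicate 3. Of the other 65 pathway genes, 1 was called under median-ratio scaling, quantile normalization, rescaled TPM and GC and length trends taken out, Egln3 each time, and 0 to 10 with 1 library left out. The number of the 37 without overlap was 7 (18.9% beside 29.7% of all genes) and 24 against WT replicate 3 alone (64.9% beside 65.2%). With 1 library left out it was 8 to 18 (21.6% to 48.6%), beside 35.5% to 56.1% of all genes. Their median log2 fold change was 0.049, −0.041 with GC and length trends taken out, −0.077 with the ribosomal covariate, −0.10 against WT replicate 3 alone, and −0.040 (without WT replicate 1) to 0.099 (without WT replicate 3) with 1 library left out. With the replicate number as a block (replicate block), 4 genes were called and 0 of the 37. Whether the numbers pair the libraries cannot be told from these values: deviations of same-numbered libraries correlated at 0.23, −0.0080 and 0.13. WT replicates 1 and 3 correlated best with the library of the same number, and WT replicate 2 with LRP5-null replicate 3 (0.022).

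In 16 of the 37 genes the sign held under all 18 alternatives, or for Pfkfb2, which is below 5 TPM, the 17 it entered: Hk1, Hk2, Pfkp, Pfkfb2, Aldoa, Tpi1, Gapdh, G6pdx, Pgls, Pgd, Tkt, Pygl, Gbe1, Ugp2, Pgm1 and Hif1a. Elsewhere it turned, and the cause was not tested. Under median-ratio scaling Rpe stood at −0.029. Under quantile normalization Pgk1 stood at 0.026, Pkm at 0.046 and Ldhb at −0.0095, and with rescaled TPM Slc2a1 at 0.012 and Pgk1 at 0.0031. With GC and length trends taken out the values were −0.023 for Slc16a3, −0.038 for Hk3, −0.016 for Gpi1, −0.070 for Pfkl, −0.041 for Pfkfb4, −0.065 for Eno1, −0.045 for Ldhb, −0.018 for Rpia and −0.062 for Taldo1. With the ribosomal covariate they were −0.069 for Slc2a3, −0.015 for Slc16a3, −0.11 for Hk3, −0.16 for Gpi1, −0.099 for Pfkl, −0.18 for Pfkfb4, −0.11 for Eno1, −0.077 for Ldhb, −0.031 for Rpia, −0.017 for Taldo1 and −0.046 for Pgm2. Against WT replicate 3 alone they were −0.12 for Slc2a3, −0.081 for Slc2a6, −0.062 for Slc16a3, −0.19 for Hk3, −0.26 for Gpi1, −0.14 for Pfkl, −0.28 for Pfkfb4, −0.18 for Eno1, −0.12 for Ldhb, −0.073 for H6pd, −0.059 for Rpia, −0.046 for Taldo1 and −0.12 for Pgm2. With 1 library left out, the ranges that crossed 0 were −0.073 to 0.061 for Slc2a1, −0.010 to 0.15 for Slc2a3, −0.041 to 0.21 for Hk3, −0.18 to 0.26 for Gpi1, −0.058 to 0.15 for Pfkl, −0.0013 to 0.38 for Pfkfb3, −0.080 to 0.22 for Pfkfb4, −0.077 to 0.017 for Pgk1, −0.14 to 0.071 for Pgam1, −0.040 to 0.18 for Eno1, −0.084 to 0.011 for Pkm, −0.15 to 0.019 for Ldha, −0.015 to 0.14 for Ldhb, −0.011 to 0.099 for Rpia, −0.18 to 0.33 for Rpe, −0.0012 to 0.090 for Taldo1 and −0.24 to 0.099 for Gys1. Precision is limited by 3 libraries a group, and the depth per gene is unknown.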

Other observations

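Genes at the step after glycolysis, where pyruvate enters mitochondria and is turned into acetyl-CoA, were part of the 104 further pathway genes. Of the 10 tested, 0 were called by limma, and 6 had an unadjusted limma p under 0.05, beside 23.5% of all genes. Between groups 8 did not overlap, 4 higher and 4 lower in LRP5-null, which is 80% beside 29.7% of all genes. That was the highest share among the lists into which the further genes were divided. The other lists had 10% to 28.6%, and the 65 genes together had 29.2%. Their median log2 fold change was −0.027. The genes named here were chosen after their values were seen. Dld, the shared dehydrogenase subunit of the pyruvate dehydrogenase complex, was at 44.5, 39.9 and 32.9 TPM in WT replicates 1 to 3. In LRP5-null replicates 1 to 3 it was at 31.5, 30.3 and 30.3 TPM (log2 fold change −0.33, limma adjusted p = 0.155). Its level in WT replicate 3 lay close to the LRP5-null values. Pdk1, a kinase that switches the complex off, had means of 2.04 TPM in WT and 1.29 TPM in LRP5-null (−0.41, limma adjusted p = 0.133). In the opposite direction were Mpc2, a subunit of the mitochondrial pyruvate carrier (0.23, limma adjusted p = 0.163), and Dlat, another subunit of the complex (0.22, limma adjusted p = 0.165).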
